A study of Homo sapiens with 8 samples.

Results

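The genes described here are 36 aminoacyl-tRNA synthetases, 20 that work in the cytosol and 16 that work in mitochondria, found by symbol among the 60676 rows of a table of raw RNASeq read counts. The cells were IGR-N91, an established human neuroblastoma line, grown as aggregates in hanging drops and harvested after 20 h by the sample labels, while the series design text gives 24 h. Control aggregates received medium in which no tissue had been cultured. The other 3 groups received medium conditioned by embryonic ganglia: E8-cSGcm from sympathetic ganglia of the chick at embryonic day 8 (spelled E8-cGScm in the sample labels), E8-cDRGcm from chick dorsal root ganglia at embryonic day 8, and E15.5-mSGcm from mouse sympathetic ganglia at the later embryonic day in its name. Each group held 2 libraries of the same line, and the study describes duplicates and distinct samples without saying whether the 2 libraries came from separate cultures, so the p-values measure the spread between these libraries, which may be technical.

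Aminoacyl-tRNA synthetases attach each amino acid to its tRNA and thereby set the accuracy of the genetic code. Cytosolic and mitochondrial translation use largely separate enzymes, all encoded in the nucleus, and several cytosolic enzymes are held together in the multisynthetase complex. When uncharged tRNA accumulates, the kinase GCN2 slows translation and the transcription factor ATF4 is made, and many cytosolic synthetase genes are among the genes that ATF4 is known to activate.

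Library totals ranged from 7930765 to 15060744 counts, and the 2 E15.5-mSGcm libraries were the smallest, with 7930765 and 8937397. Of 16680 genes that passed the filter on low counts, 33 were members, 19 cytosolic and 14 mitochondrial. Of the 10 noradrenergic neuroblastoma markers, CHGA had no count in any library and the other 9 were tested. MYCN gave most of their summed level, with 4640 ± 49.1 CPM (counts scaled to the normalised library total, mean ± SD, n = 2) in control, 3400 ± 133 in E8-cSGcm, 2500 ± 88.2 in E8-cDRGcm and 2640 ± 92.6 in E15.5-mSGcm. Of these 9 markers 3, 6 and 4 were called lower than control in E8-cSGcm, E8-cDRGcm and E15.5-mSGcm and none higher. Over all tested genes 3.86%, 10.9% and 7.27% were called lower and 4.73%, 9.81% and 6.65% higher in the same order. In E15.5-mSGcm the log2 fold changes of the 9 markers ran from -3.03 to 0.47. Of 6 fibroblast markers, none was called in E8-cSGcm, DCN was lower in E8-cDRGcm, and in E15.5-mSGcm COL1A2, DCN, LUM and PDGFRA were higher and COL1A1 lower, the part of which in the synthetase values was not tested. The glial markers SOX10 and FABP7, like nearly all erythroid, endothelial and leukocyte markers, were at or near 0. In bulk RNA, fewer cells of a type and less RNA per cell cannot be told apart.

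In control medium the mRNAs of the cytosolic enzymes had the higher median level. Per kilobase of the canonical transcript, the median control level was 77.6 CPM over the 19 cytosolic members with counts and 11.1 over the 14 mitochondrial members. KARS1 and GARS1, which charge lysine and glycine tRNAs in both compartments, stood first with 179 ± 4.68 and 177 ± 6.23 CPM per kilobase (mean ± SD, n = 2), and their control libraries overlapped. EPRS1, the joint glutamyl and prolyl enzyme, followed at 149 ± 4.51, above TARS1 at 133 ± 0.11. At the low end of the cytosolic order stood TARS3, a second threonyl enzyme, with 10 ± 0.461 and the cysteinyl enzyme CARS1 with 1.07 ± 0.224. Among mitochondrial members IARS2, the isoleucyl enzyme, stood apart at 95.8 ± 2.65, since the next in order, TARS2, reached 22.7 ± 0.513. The lowest were AARS2 at 4.6 ± 0.636, which overlapped PARS2 at 5 ± 0.0865, and WARS2 at 1.76 ± 0.00979.

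The members VARS1, VARS2 and SARS2 were listed at 0 in all 8 libraries. Their neighbourhoods held few counts as well: within 250000 bases on either side, 51 of 51 other protein-coding genes near VARS1, 20 of 21 near VARS2 and 15 of 18 near SARS2 had no count, compared with 20.8% of all protein-coding genes. Those neighbours included LSM2, GTF2H4, HNRNPL and MRPS12, which cells generally need. CARS1 had 20 to 97 counts per library, and its neighbour NAP1L4 had 10 to 23. A count of 0 allows up to 0.197 to 0.384 CPM in these libraries, for counting error only. By the GENCODE annotation 1492 exonic bases of SARS2 (48.2%) overlap another protein-coding gene on the same strand. For VARS2, 4073 exonic bases (63%) overlap a non-coding RNA gene on the same strand, and no overlap was listed for VARS1. The part of mapping, overlap or counting in the listed values was not tested, so a listed 0 is not taken here as absence of the mRNA.

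The first question was whether medium from chick sympathetic ganglia changed the synthetase mRNAs. In E8-cSGcm 5 of 19 tested cytosolic members rose, WARS1, SARS1, CARS1, MARS1 and GARS1, and none fell, where a gene was called once its adjusted p was under 0.05 and it changed 1.5-fold or more. Over all tested genes 4.73% were called higher and 3.86% lower in this comparison. No member of the mitochondrial list was called in either direction. GARS1 and KARS1, which serve both compartments, are counted with the cytosolic members here and below. The median log2 fold change was 0.27 over the cytosolic and 0.044 over the mitochondrial members, against 0.01 over all tested genes.

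E8-cDRGcm, from sensory ganglia of the same stage, was compared in the same way. Here 8 of 19 cytosolic members rose, AARS1, NARS1 and YARS1 in addition to those 5, and none fell, beside 9.81% of all tested genes called higher and 10.9% called lower. Again no mitochondrial member was called. The cytosolic median was 0.145 and the mitochondrial median -0.078, against 0.006 over all tested genes. Cytosolic values ran from -0.34 for TARS3 to 1.901 for WARS1.

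E15.5-mSGcm gave few calls. WARS1 was the 1 of 19 cytosolic members that rose, beside 6.65% of all tested genes called higher, and PARS2 was the 1 of 14 mitochondrial members that fell, beside 7.27% called lower. The medians were 0.026 over cytosolic and -0.090 over mitochondrial members, against -0.015 over all tested genes. These 2 libraries had the smallest totals; after thinning all libraries to the lower of them, WARS1 and PARS2 were again the members called.

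**Figure D1:**
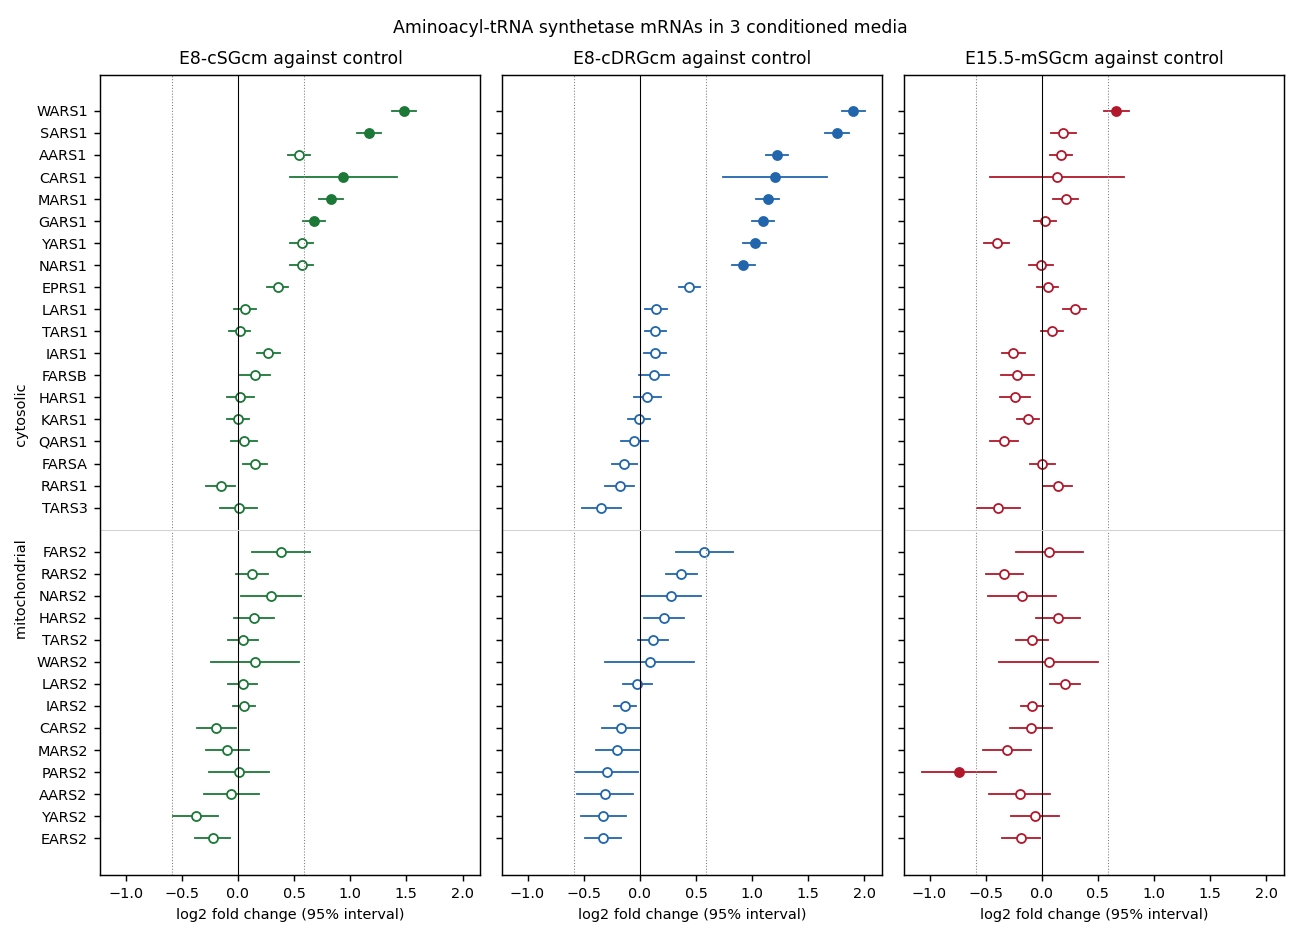
Log2 fold change of each tested synthetase mRNA against control medium, with 95% intervals from the edgeR fit, cytosolic members above the grey line and mitochondrial members below it, each ordered by the value in E8-cDRGcm. Filled points passed both limits and dotted lines mark a fold change of 1.5: 5, 8 and 1 cytosolic members are filled to the right of 0, and PARS2 in E15.5-mSGcm is filled to the left.

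WARS1, the tryptophanyl enzyme and one also known to be induced by interferon gamma, rose most of the members in each medium. Its level was 154.7 and 157.9 CPM in the control libraries, 423.5 and 447.6 in E8-cSGcm, 591.1 and 576.6 in E8-cDRGcm, and 236.4 and 258.4 in E15.5-mSGcm. The 4 groups did not overlap, and both chick media stood above the mouse medium. The log2 fold change against control was 1.48 ± 0.052 (SE) in E8-cSGcm, 1.901 ± 0.052 in E8-cDRGcm and 0.66 ± 0.054 in E15.5-mSGcm (edgeR adjusted p = 7.75e-23, 7.89e-27 and 1.12e-12).

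SARS1, the seryl enzyme, measured 154.1 and 143 CPM in control, 321 and 345.8 in E8-cSGcm, 501.1 and 499.7 in E8-cDRGcm, and 169.5 and 169.4 in E15.5-mSGcm. Both E8-cDRGcm libraries were above both E8-cSGcm libraries, and these were above the other 4. The log2 fold changes were 1.17 ± 0.052, 1.75 ± 0.052 and 0.19 ± 0.055 (edgeR adjusted p = 1.03e-19, 8.22e-26 and 0.00602), of which the last was below the fold change required for a call.

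AARS1, the alanyl enzyme, measured 427.9 and 410.1 CPM in control, 624.2 and 598.8 in E8-cSGcm, 973.4 and 984.2 in E8-cDRGcm, and 456.3 and 488 in E15.5-mSGcm. Its 4 groups did not overlap. The fold change was 2.34 in E8-cDRGcm (log2 1.22 ± 0.049, edgeR adjusted p = 6.2e-22) and 1.46 in E8-cSGcm, just under the limit for a call.

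The methionyl enzyme MARS1 and the glycyl enzyme GARS1 followed. MARS1 measured 204.2 and 187.5 CPM in control, 333.3 and 363.3 in E8-cSGcm, 429.4 and 431.3 in E8-cDRGcm, and 221.9 and 231.2 in E15.5-mSGcm, again without overlap, for log2 fold changes of 0.83 ± 0.053, 1.137 ± 0.052 and 0.21 ± 0.055. By the GENCODE annotation 355 exonic bases of MARS1 overlap DDIT3 on the opposite strand, and whether reads were counted by strand is not given in the sources used here. DDIT3 had log2 fold changes of 1.01, 1.74 and -0.17 in the same media, and its part in the MARS1 counts was not tested. GARS1 measured 442.6 and 421.1 in control, 689.7 and 691.9 in E8-cSGcm, 901.4 and 943.1 in E8-cDRGcm, and 436 and 443.4 in E15.5-mSGcm. Its E15.5-mSGcm libraries overlapped control, and the log2 fold changes were 0.68 ± 0.048, 1.10 ± 0.048 and 0.026 ± 0.049.

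CARS1 passed on few reads. It had 44 and 38 counts in the control libraries, 53 and 97 in E8-cSGcm, 92 and 89 in E8-cDRGcm, and 20 and 33 in E15.5-mSGcm. In CPM the 2 E8-cSGcm libraries, at 4.249 and 6.792, were both above control at 3.364 and 2.499 but far from each other. The log2 fold change was 0.94 ± 0.24 in E8-cSGcm and 1.203 ± 0.23 in E8-cDRGcm (edgeR adjusted p = 0.00198 and 3.07e-05). The E8-cSGcm call was lost without E8-cSGcm replicate 2 (0.55, adjusted p = 0.183) and without control replicate 2 (0.73, adjusted p = 0.0673).

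NARS1, the asparaginyl enzyme, and YARS1, the tyrosyl enzyme, were called in E8-cDRGcm only among the comparisons with control. NARS1 measured 302 and 271.8 CPM in control, 415.1 and 434.3 in E8-cSGcm, 557.3 and 527.6 in E8-cDRGcm, and 288.9 and 281.9 in E15.5-mSGcm, the last within the range of control. YARS1 measured 205.7 and 195.9 in control, 289.1 and 305.4 in E8-cSGcm, 407.6 and 407.9 in E8-cDRGcm, and 154.2 and 149.4 in E15.5-mSGcm, where both libraries were below both control libraries. Fold changes in E8-cDRGcm were 1.89 for NARS1 and 2.03 for YARS1. In E8-cSGcm both reached 1.48, and both passed 1.5 without control replicate 1 or without E8-cSGcm replicate 1.

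**Figure D2:**
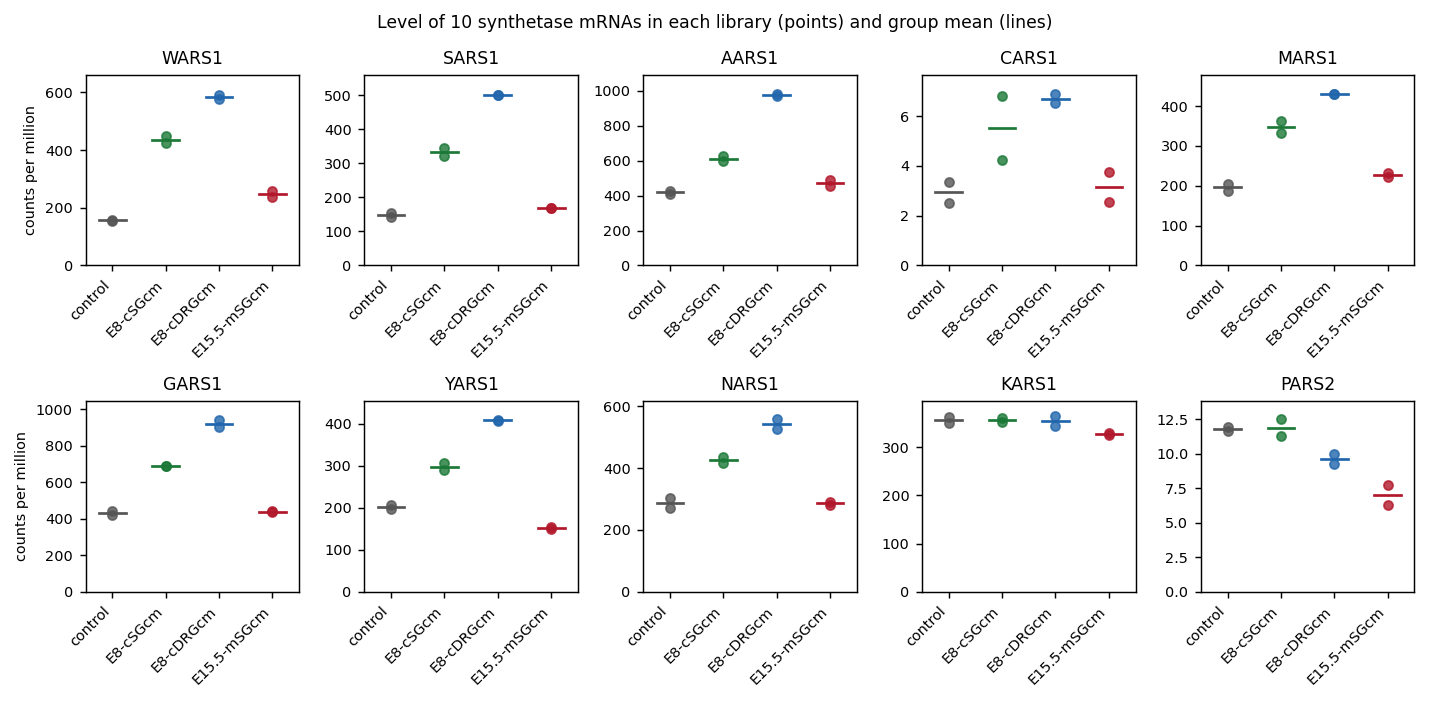
CPM of 10 synthetase mRNAs in each of the 8 libraries (points), with the mean of the 2 libraries of each group (lines) and axes that start at 0. WARS1, SARS1 and AARS1 rise from control through E8-cSGcm to E8-cDRGcm without overlap, KARS1 stays between 326.3 and 365.1, and PARS2 is lowest in both E15.5-mSGcm libraries.

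Among the other cytosolic enzymes, KARS1 and TARS1 differed little from control. KARS1 had the smallest change in both chick media, with 363.5 and 350.3 CPM in control, 352.5 and 359.9 in E8-cSGcm, 343.3 and 365.1 in E8-cDRGcm, and 326.3 and 329.6 in E15.5-mSGcm. Both chick groups overlapped control, and the E15.5-mSGcm libraries lay lower by 0.12 ± 0.049 on the log2 scale. TARS1 measured 354.5 and 354.1 in control, 350.5 and 365.4 in E8-cSGcm, 388.2 and 391.8 in E8-cDRGcm, and 375.9 and 380.5 in E15.5-mSGcm. Its log2 fold changes of 0.015, 0.14 and 0.094 were all small.

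TARS3 went the other way from the called members without passing the fold limit. It measured 35.94 and 33.67 CPM in control, 34.64 and 35.15 in E8-cSGcm, 27.75 and 27.03 in E8-cDRGcm, and 25.37 and 27.65 in E15.5-mSGcm. Both latter groups lay below all 4 libraries of the former, at log2 -0.34 ± 0.086 and -0.39 ± 0.094 against control. TARS1 and TARS3 are related in sequence, and how reads shared between genes were counted is not given in the sources used here.

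QARS1, the glutaminyl enzyme, measured 167.2 and 162.3 CPM in control, 160.9 and 180.1 in E8-cSGcm, 151.5 and 166.8 in E8-cDRGcm, and 125.2 and 135 in E15.5-mSGcm. FARSA, the catalytic subunit of the phenylalanyl enzyme, measured 148 and 148.4, then 160.3 and 169, 133.8 and 135.7, and 152.7 and 144.6 in the same order, and its partner FARSB had log2 fold changes of 0.15, 0.13 and -0.22. QARS1 was lowest in the mouse medium and overlapped control in both chick media, while FARSA was highest in E8-cSGcm and lowest in E8-cDRGcm. None of the 3 was called. EPRS1 (0.36, 0.44 and 0.051), IARS1 (0.27, 0.13 and -0.255), LARS1 (0.060, 0.145 and 0.29) and RARS1 (-0.15, -0.18 and 0.14), all of the multisynthetase complex, likewise stayed under the fold limit in E8-cSGcm, E8-cDRGcm and E15.5-mSGcm. By adjusted p alone EPRS1 (edgeR adjusted p = 1.23e-07 and 3.74e-10) and IARS1 were higher in both chick media. LARS1 was higher in E8-cDRGcm and E15.5-mSGcm, IARS1 lower in E15.5-mSGcm and RARS1 lower in E8-cDRGcm. EPRS1 and LARS1 rose from control through E8-cSGcm to E8-cDRGcm without overlap.

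The mitochondrial enzymes showed 1 call against control. PARS2, the mitochondrial prolyl enzyme, had 156 and 177 counts in control, 156 and 161 in E8-cSGcm, 124 and 136 in E8-cDRGcm, and 49 and 68 in E15.5-mSGcm, which is 11.93 and 11.64, 12.51 and 11.27, 9.274 and 9.962, and 6.277 and 7.768 CPM. Both E15.5-mSGcm libraries were below the other 6. The log2 fold change there was -0.74 ± 0.16 (edgeR adjusted p = 0.000434). FARS2, the mitochondrial phenylalanyl enzyme, came nearest to a call in E8-cDRGcm, with 12.92 and 11.84 CPM in control and 17.95 and 18.83 in that medium, a fold change of 1.49. It was called there, at a log2 value of 0.64, once all libraries were thinned to 1 total.

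Cytosolic and mitochondrial enzymes for the same amino acid could be set side by side for 13 pairs with both members tested, EPRS1 being paired with both EARS2 and PARS2. The cytosolic value was above the mitochondrial one in 10 pairs in E8-cSGcm, 11 in E8-cDRGcm and 10 in E15.5-mSGcm, and the median differences in log2 fold change were 0.35, 0.73 and 0.23. The widest gap was between WARS1 and WARS2, at 1.33 in E8-cSGcm and 1.81 in E8-cDRGcm. RARS1 and RARS2, for arginine, had the reverse order in both chick media, at -0.28 and -0.55, but not in E15.5-mSGcm, at 0.475. HARS1 and HARS2, for histidine, had the reverse order in all 3 media, at -0.12, -0.15 and -0.38. So did TARS1 and TARS2 in E8-cSGcm (-0.03), and in E15.5-mSGcm IARS1 and IARS2 (-0.17) and YARS1 and YARS2 (-0.34). The 3 sets of values share the control libraries, and no test was made of the pairs.

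**Figure D3:**
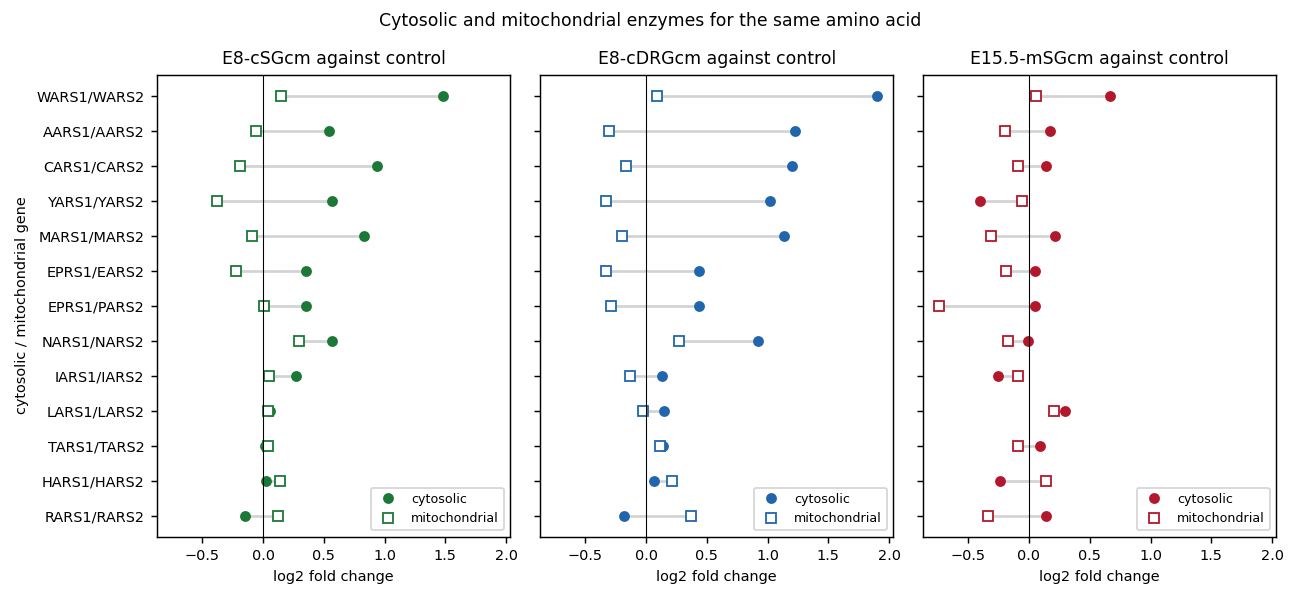
Log2 fold change against control of cytosolic (filled circles) and mitochondrial (open squares) enzymes for the same amino acid, 13 pairs ordered by their difference in E8-cDRGcm. In the chick media the circles of WARS1, AARS1, CARS1, YARS1 and MARS1 lie far to the right of their squares. RARS1 lies left of RARS2 there and, by less, HARS1 left of HARS2.

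HARS1 and HARS2, the cytosolic and mitochondrial histidyl enzymes, are neighbours on chromosome 5 whose start sites lie 85 bases apart on opposite strands (RefSeq, GRCh38.p14). HARS1 measured 99.55 and 96.8 CPM in control, 97.34 and 102 in E8-cSGcm, 107.8 and 97.86 in E8-cDRGcm, and 83.66 and 82.71 in E15.5-mSGcm. HARS2 measured 25.69 and 27.88, 30.07 and 29.2, 32.61 and 29.67, and 29.72 and 29.47 in the same order. In the mouse medium HARS1 was below every other library and HARS2 above both control libraries, with log2 values of -0.24 ± 0.064 and 0.14 ± 0.097. Neither was called, and 108 exonic bases of the 2 genes overlap on opposite strands.

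Members were next grouped by what is known of them. Their counts are to be read beside 4.73%, 9.81% and 6.65% of all tested genes called higher in E8-cSGcm, E8-cDRGcm and E15.5-mSGcm. The subgroups were not tested against each other. Of 12 tested members listed as ATF4-linked from general knowledge, 5 rose in E8-cSGcm, 8 in E8-cDRGcm and 1 in E15.5-mSGcm, and these were all of the cytosolic members called. Their median log2 fold changes were 0.57, 1.06 and 0.12. The other 7 tested cytosolic members, FARSA, FARSB, HARS1, KARS1, QARS1, RARS1 and TARS3, had no call against control and medians of 0.023, -0.049 and -0.22. The list was drawn up with earlier results of these data known, so it is no independent evidence. In the multisynthetase complex, MARS1 was the 1 of 7 members that rose in each chick medium and none rose in E15.5-mSGcm, with medians of 0.060, 0.13 and 0.051, while 4, 7 and 1 of the 12 tested cytosolic members outside it rose, with medians of 0.56, 0.97 and 0.015. Both structural classes held called members: 3 of 9 in class I and 2 of 10 in class II in E8-cSGcm, and 4 in each in E8-cDRGcm.

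**Figure D4:**
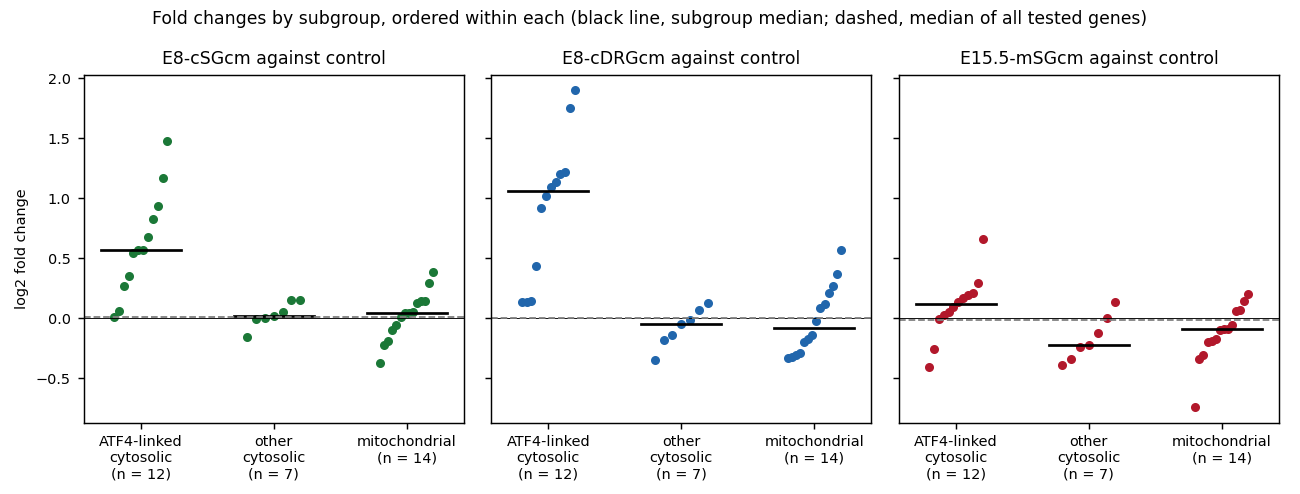
Log2 fold change against control for 12 ATF4-linked cytosolic, 7 other cytosolic and 14 mitochondrial members (points, ordered within each subgroup), with subgroup medians as black lines and the median of all tested genes dashed. In E8-cDRGcm the ATF4-linked median is 1.06 and the other medians are -0.049 and -0.078.

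The media were also tested against each other. Between the chick media, AARS1 (log2 0.68 ± 0.048, edgeR adjusted p = 1.25e-13) and SARS1 (0.585 ± 0.049, adjusted p = 9.61e-12) were called higher in E8-cDRGcm than in E8-cSGcm, beside 2.62% of all tested genes called higher and 4.87% lower. SARS1 stood at the fold limit itself, with a fold change of 1.5, and 1 cytosolic member was called here in place of 2 under 3 other settings and without control, E8-cSGcm or E8-cDRGcm replicate 1. WARS1, GARS1, NARS1, YARS1 and MARS1 were higher in E8-cDRGcm by 0.42, 0.42, 0.35, 0.455 and 0.305 without reaching the fold limit, and no mitochondrial member was called.

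Against E8-cSGcm, the mouse medium had 6 of 19 cytosolic members lower, CARS1, GARS1, MARS1, SARS1, WARS1 and YARS1, and none higher. Of the mitochondrial members PARS2 was lower, at -0.75 ± 0.16 (edgeR adjusted p = 0.000242). Over all tested genes 12.1% were called lower and 10.2% higher. Against E8-cDRGcm, 8 cytosolic members were lower in E15.5-mSGcm, the 8 that had risen in E8-cDRGcm, and RARS2 was the 1 mitochondrial member lower, beside 13.1% of all tested genes called lower and 13.1% higher. No member was called higher in the mouse medium in either comparison. SARS1 had the widest difference from E8-cDRGcm, at -1.56 ± 0.053, followed by YARS1 at -1.43 ± 0.053 and WARS1 at -1.24 ± 0.052.

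Promoters of the members were read from RefSeq for GRCh38.p14, which had an entry for 30 of 36 (none for LARS1, TARS3, VARS1, YARS1, AARS2 and VARS2). The windows ran from 250 bases before to 50 bases after the start site and were searched on both strands for TGATGNAA, a form of the C/EBP-ATF response element that ATF4 binds with a C/EBP partner. It was found in 7 of 30 member windows (23.3%) and in 1270 of 35116 windows of all genes (3.62%). By compartment 6 of 16 cytosolic and 1 of 14 mitochondrial members held it. It was held by 4 of the 8 members with an entry that were called in any comparison with control and by 3 of 22 others, IARS1, TARS1 and YARS2. These 8 include PARS2, which fell in E15.5-mSGcm and had no match, and leave out YARS1, which rose but had no entry. The 6 cytosolic stretches are shown 5′ to 3′ on the strand of the gene, because they place a like element in members that rose and in members that did not. Capitals mark the match.
AARS1: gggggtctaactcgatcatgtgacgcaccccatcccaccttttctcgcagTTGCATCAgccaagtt
CARS1: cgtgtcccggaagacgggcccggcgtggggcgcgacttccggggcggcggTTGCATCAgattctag
MARS1: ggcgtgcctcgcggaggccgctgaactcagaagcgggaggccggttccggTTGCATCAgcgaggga
NARS1: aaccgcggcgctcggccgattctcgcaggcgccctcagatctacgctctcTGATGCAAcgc
IARS1: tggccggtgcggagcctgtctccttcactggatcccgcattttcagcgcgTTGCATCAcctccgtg
TARS1: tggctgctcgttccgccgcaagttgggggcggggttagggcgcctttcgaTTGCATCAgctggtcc

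The stretches lie at chr16:70289678-70289743 (minus strand) for AARS1, chr11:3057410-3057475 (minus) for CARS1, chr12:57488014-57488079 (plus) for MARS1, chr18:57621812-57621872 (minus) for NARS1, chr9:92293695-92293760 (minus) for IARS1 and chr5:33440917-33440982 (plus) for TARS1. The match began at base -187 from the start site in AARS1, at -2 in CARS1, -4 in MARS1 and -13 in IARS1, and within the transcribed part at base 15 in NARS1 and base 3 in TARS1. In E8-cDRGcm the log2 fold changes of these 6 were 1.22, 1.203, 1.137, 0.92, 0.13 and 0.14 in the order AARS1, CARS1, MARS1, NARS1, IARS1 and TARS1. WARS1, SARS1 and GARS1 rose in both chick media and had no match within their windows. A match is a description of letters and no evidence of binding.

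Genes that work with the synthetases were counted from lists, to be read beside the shares of all tested genes called higher and lower against control, which were 4.73% and 3.86% in E8-cSGcm, 9.81% and 10.9% in E8-cDRGcm, and 6.65% and 7.27% in E15.5-mSGcm. Of the 3 scaffold genes of the multisynthetase complex none was called against control, and AIMP1 came nearest, at 0.32 ± 0.063 in E8-cSGcm and 0.56 ± 0.062 in E8-cDRGcm. None of 6 mitochondrial partners was called. Of 5 genes of the elongation factor that serves delivery of charged tRNA to the cytosolic ribosome, EEF1A1 and EEF1A2 were tested and not called. EEF1B2 and EEF1G were listed at 0, and EEF1D had 1 count in E8-cSGcm replicate 2 and none elsewhere. Among 8 genes of tRNA maturation and export ELAC1, a tRNA 3′ processing enzyme, fell in E8-cDRGcm (-1.06 ± 0.20) and E15.5-mSGcm (-0.68 ± 0.21), and XPOT, the tRNA exporter, was not called. Of 4 tested proofreading and selenocysteine genes, DTD2, a D-aminoacyl-tRNA deacylase, fell (-1.18 ± 0.10) and SEPSECS, which makes selenocysteinyl-tRNA, rose (0.585 ± 0.094) in E8-cDRGcm.

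A list of 14 amino acid response genes, which ATF4 and its partners control, gave 8 higher and 2 lower in E8-cSGcm, 10 higher and 0 lower in E8-cDRGcm, and 0 higher and 4 lower in E15.5-mSGcm, with medians of 0.68, 0.80 and -0.29, beside the same shares of all tested genes. The transcript of ATF4 itself was not called, at -0.057, 0.22 and -0.22. ASNS, asparagine synthetase, had log2 fold changes of 1.56 ± 0.17, 2.82 ± 0.145 and -0.70 ± 0.27 and was called in all 3 media, lower in the last. Those called higher in E8-cSGcm were ATF5, DDIT3, TRIB3, ASNS, EIF4EBP1, PSAT1, PHGDH and SHMT2. The same genes were higher in E8-cDRGcm, with CEBPB and CEBPG in addition. CHAC1, a glutathione-degrading enzyme, and ATF3, a transcription factor, fell in E8-cSGcm (-0.64 ± 0.10 and -0.83 ± 0.11) and in E15.5-mSGcm (-2.10 ± 0.14 and -0.74 ± 0.12). SESN2, a leucine sensor, fell in E15.5-mSGcm (-1 ± 0.11).

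As a share of all counts, the cytosolic members together made up 0.489% and 0.468% of the control libraries, 0.636% and 0.664% in E8-cSGcm, 0.752% and 0.744% in E8-cDRGcm, and 0.476% and 0.473% in E15.5-mSGcm. Mitochondrial members made up 0.0785% and 0.0754%, 0.0794% and 0.0793%, 0.0743% and 0.0712%, and 0.0703% and 0.0703% in the same order. Both chick media thus stood above control and the mouse medium in the cytosolic share, and the mitochondrial share was lowest in the mouse medium.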

How the data were processed

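The authors deposited raw counts per Ensembl gene for 8 libraries, made from 50 ng of RNA and sequenced as 75-base reads. The submitters' processing notes name bcl2fastq 2.17.1.14, cutadapt 1.9.1, TopHat2 2.1.0 and HTSeq 0.11.3 with hg38 and GRCh38, whereas the study's methods name hg19. The rows carry no coordinates, and 58611 of 60676 were matched to symbols through the GENCODE annotation lifted to GRCh37, which also gave canonical transcript lengths and overlaps. The study's methods name a stranded library kit, but whether counting used strand is not given in the sources used here.

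Counts were filtered with filterByExpr, scaled by TMM and fitted in 1 model of all 8 libraries and 4 groups with edgeR 4.0.16 (robust quasi-likelihood test) in R 4.3.3. Adjusted p-values are Benjamini-Hochberg values over 16680 genes, and genes were called when the adjusted p was under 0.05 and the change was 1.5-fold or more. CPM were computed from TMM-scaled totals. The script was tested on simulated counts.

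Library values are given for the 5 called cytosolic members with the largest and the 3 tested ones with the smallest change in each medium, for called mitochondrial members and for HARS1, HARS2, TARS1, TARS3, GARS1 and KARS1. NARS1 and YARS1 as called members, and FARS2 and RARS2, were added after their values were seen. The members and all lists were chosen with earlier results of these data known. Alternatives were DESeq2 1.42.0, RLE scaling, looser and stricter filters (at least 1 count summed over libraries, or at least 10 in each), a fit of the compared libraries alone, calls by adjusted p alone, a replicate block, each library left out, and thinning to 7930765 counts. Libraries of 1 group differed by more than sampling noise (chi-square of 1.77 to 3.78 per gene), so each counted as 1 replicate. Intervals of fold changes come from the edgeR fit and include the spread between libraries, and the limit that a count of 0 allows covers counting error only. Figures were drawn with matplotlib 3.10.9.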

Additional observations from a re-analysis of the deposited data

Results flagged for a closer look

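The members YARS1 and RARS2 moved in opposite directions against control in 2 media, each past an adjusted p of 0.05, and the media also differed when tested directly. For YARS1 the log2 fold change was 0.57 in E8-cSGcm and 1.02 in E8-cDRGcm but -0.40 in E15.5-mSGcm, and the direct differences of the mouse medium were -0.97 from E8-cSGcm (edgeR adjusted p = 8.83e-18) and -1.43 from E8-cDRGcm (edgeR adjusted p = 5.25e-23). Both E15.5-mSGcm libraries lay below both control libraries, and all 4 libraries of the chick media lay above them.

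For RARS2, the mitochondrial arginyl enzyme, the level was 48.25 and 47.08 CPM in control, 62.22 and 60.94 in E8-cDRGcm and 36.13 and 39.3 in E15.5-mSGcm, without overlap. The values against control were 0.37 and -0.335, and the direct difference of the mouse medium from E8-cDRGcm was -0.705 (edgeR adjusted p = 1.11e-09).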

How the results depend on the processing

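DESeq2, RLE scaling, a filter at 10 counts in every library and the replicate block changed no count of called members by over 1.5 times. With the replicate block 5 cytosolic members were called higher in E8-cSGcm, 8 in E8-cDRGcm and 1 in E15.5-mSGcm. Libraries with the same number did not deviate together (r from -0.0437 to 0.042), so the numbers were not taken as pairs. Calls by adjusted p alone gave more members, beside 16.1%, 24.8% and 17.8% of all tested genes higher and 15.2%, 24.7% and 20% lower in E8-cSGcm, E8-cDRGcm and E15.5-mSGcm against control. By that rule 11 cytosolic and 1 mitochondrial members were higher and 2 mitochondrial members lower in E8-cSGcm, 12 cytosolic members higher and 3 lower with 3 mitochondrial higher and 4 lower in E8-cDRGcm, and 5 cytosolic higher and 7 lower with 1 mitochondrial higher and 3 lower in E15.5-mSGcm. Between E8-cDRGcm and E8-cSGcm it gave 8 cytosolic higher and 3 lower with 1 mitochondrial higher and 1 lower, between E15.5-mSGcm and E8-cSGcm 2 cytosolic higher and 16 lower with 2 mitochondrial higher and 4 lower, and between E15.5-mSGcm and E8-cDRGcm 3 cytosolic higher and 13 lower with 2 mitochondrial higher and 5 lower. In E8-cDRGcm 1 mitochondrial member, FARS2, was higher with libraries thinned. Cytosolic members higher in E8-cDRGcm than in E8-cSGcm numbered 1 with the filter at 1 count in total, with the compared libraries alone and with libraries thinned. The cause was not tested. Leaving out 1 library gave 0 to 1 mitochondrial members higher in E8-cSGcm, 0 to 1 in E8-cDRGcm, 1 to 2 cytosolic members higher in E8-cDRGcm than in E8-cSGcm (1 without control, E8-cSGcm or E8-cDRGcm replicate 1), and 1 to 2 mitochondrial members lower in E15.5-mSGcm than in E8-cSGcm or E8-cDRGcm. FARS2 passed in E8-cDRGcm at 0.64 without control replicate 1 and at 0.605 without E8-cDRGcm replicate 1, and in E8-cSGcm at 0.585 without E8-cSGcm replicate 1. A group of which 1 library was left was assumed to vary like the others. For single members against control, with the fold limit kept, 1475 values under an alternative stayed on their side of the limits, 8 passed them (of NARS1, YARS1 and FARS2) and 2, both of CARS1 in E8-cSGcm, no longer did. Comparisons between media are not in these counts.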
